A study of Mus musculus with 4 samples.

Results

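The nuclear-encoded respiratory chain genes were followed across 4 long-read libraries of mouse neural stem cells. Members were the protein-coding genes of GENCODE M21 (mm10, GRCm38) whose symbols start with Nduf, Sdha, Sdhb, Sdhc, Sdhd, Uqcr, Cox4, Cox5, Cox6, Cox7, Cox8 or Atp5. The rule found 93 of the 14949 genes with counts and 585 of the 46637 isoforms that name a gene. By complex they were 38 genes of complex I, 8 assembly factors of complex I, 4 genes of complex II, 3 assembly factors of complex II, 8 genes of complex III, 15 of complex IV and 17 of complex V. Of 98 annotated genes that meet the rule, Sdhaf1, Cox7b2, Cox8b, Cox8c and a further gene identifier of Atp5o were not analysed here. The rule is by symbol, so it places Ndufa4, whose protein is known as a subunit of complex IV, with complex I. The rule used no measured value.

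The study asked whether loss of Tut1, which encodes the enzyme that adds uridines to the end of the spliceosomal U6 snRNA, changes splicing. Neural stem cells were grown as neurospheres from embryonic neocortices and treated for 3 days with lipid nanoparticles (LNP). There was 1 library for each group. The library labelled Tut1f/f (control-labelled below) came from Tut1-floxed cells given empty LNP. The other 3 came from cells given LNP with mRNA for the Cre recombinase. Of these, Tut1f/f;Cre (Tut1-labelled) had a floxed Tut1 and Trp53f/f;Cre (Trp53-labelled) a floxed Trp53, written p53f/f in the genotype field. Cells with both floxed genes gave the fourth, Tut1f/f;Trp53f/f;Cre (double-labelled). Cre was thus delivered to the cultured cells as mRNA, not from a transgene with a cell type promoter. The control-labelled library carries the floxed Tut1 alleles, received no Cre mRNA and is the denominator of 3 of the 4 comparisons, which therefore share it. Exposure to Cre mRNA and loss of a gene cannot be told apart in those comparisons. With 1 library a group, nothing here was checked in a replicate, and intervals cover counting error alone, PCR copies without molecular identifiers being no separate molecules. Below, 4 values stand in the order control, Tut1, Trp53 and double as labelled. A set of 3 log2 ratios stands in the order of the last 3, each against the control-labelled library.

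The libraries held between 3936827 and 5125888 reads, of which between 2863392 and 4244467 named a gene. Tut1 had 37, 11, 14 and 27 reads, so the double-labelled library was close to the control-labelled library (log2 ratio -0.03) and the Trp53-labelled library was not (-1.17). The floxed allele loses exon 2 of Tut1, and reads summed over the whole gene do not measure that, so these sums check no label and no direction here was drawn from them. Trp53 had 175, 67, 10 and 19 reads, lowest in the 2 libraries labelled for a floxed Trp53. Xist had 0, 44, 49 and 0 reads and Ddx3y, on the Y chromosome, had 85, 0, 0 and 66, so the control-labelled and double-labelled libraries stood apart from the other 2. Rows that name no gene held 17.2% of the reads of the control-labelled library and between 27.3% and 30.2% of the others, and the ribosomal RNA gene CT010467.1 held 18.7% of gene reads there against 5.46% to 9.76%. Of 10 neural stem cell markers 9 had reads, led by Fabp7 (39422, 30043, 32690 and 33582 reads), while none of 4 microglial and 3 endothelial markers had a read, 1 of 3 mesenchymal markers had 1 read, and neuronal markers summed to between 69.1 and 83.9 CPM (counts scaled to 1000000 gene reads). By the ratio rule defined below, 4, 3 and 1 of these 9 stem cell markers were higher against the control-labelled library and 0, 0 and 1 (Vim) lower, with medians of 0.86, 0.87 and 0.34. Hes1, a Notch target, was higher each time, with ratios of 1.77, 1.65 and 1.59. Oligodendrocyte lineage markers summed to 347, 586, 687 and 464 CPM and the astrocyte list to 49.1, 12, 7.02 and 31.0 CPM, with Gfap not counted and Aqp4 at 0 to 4 reads. Aldh1l1 (187, 16, 11 and 71 reads) set the order of that sum, while S100b, with 10, 16, 10 and 21 reads, was higher in the double-labelled library by 1.49. The part of these differences in the results below was not tested.

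The respiratory chain passes electrons from NADH (complex I) and succinate (complex II) through ubiquinone to complex III, cytochrome c and complex IV, where oxygen is reduced. Complexes I, III and IV pump protons, and complex V, the ATP synthase, uses the gradient to make ATP. A few subunits of complexes I, III, IV and V are encoded in the mitochondrial genome, the rest in the nucleus, and dedicated assembly factors join them. Neural stem cells are known to rely on glycolysis more than the neurons they form do.

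Respiratory chain genes took 4.26% (Wilson 95% interval 4.24% to 4.28%), 5.83% (5.80% to 5.86%), 5.32% (5.30% to 5.34%) and 5.80% (5.77% to 5.82%) of gene-named reads. The control-labelled library was thus lowest, and its interval overlapped no other. Complex I took 1.53%, 2.06%, 1.962% and 2.07%, complex III 0.423%, 0.654%, 0.586% and 0.637%, complex IV 0.958%, 1.38%, 1.26% and 1.30%, and complex V 1.18%, 1.56%, 1.37% and 1.60%. Complex II differed from them, with 0.101%, 0.0916%, 0.0756% and 0.116%. Without CT010467.1 and the mitochondrially encoded genes in the denominator, the 4 totals were 5.40%, 6.90%, 6.21% and 6.46%.

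Of the 93 members, 90 passed the expression filter of edgeR. A gene was counted as higher or lower where its ratio of TMM-scaled CPM was at least 2-fold and the exact 95% interval excluded no change. Between the Tut1-labelled and control-labelled libraries, 1 member was higher and 8 were lower, where 13.1% of all 9882 genes tested were higher and 12.8% lower. For the Trp53-labelled library, 1 member was higher and 9 lower, against 13.2% and 14.3% of all genes. For the double-labelled library, 0 were higher and 4 lower, against 10.1% and 9.94% of all genes. Scaled by library totals instead, the same counts were 2 and 7, 2 and 6, and 2 and 3, where 15.3% and 11.1%, 14.8% and 13.0%, and 13% and 7.62% of all genes were higher and lower. In the TMM-scaled counts, shares of members higher were 1.11%, 1.11% and 0%, below the share of all genes at this 2-fold limit, and shares lower were 8.89%, 10% and 4.44%. At a limit of 1.5-fold that no longer held for the Tut1-labelled library, where 22.2% of members and 20.97% of all genes were higher. Between the double-labelled and Trp53-labelled libraries, 2 members were higher and 0 lower, against 4.07% and 3% of all genes. Between the Tut1-labelled and Trp53-labelled libraries, a comparison added after the data were seen, 0 members were higher and 0 lower, against 2.14% and 1.24% of all genes.

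The median log2 ratio over the 90 members (0.5 CPM added to each value) was 0.26, 0.19 and 0.25 against the control-labelled library, beside 0.02, 0.02 and -0.02 over all genes tested. These medians turned to -0.04, -0.08 and -0.00039 in a setting that changed both counts and scaling. Reads of rows that name no gene were added to the gene at whose position they lie, for all genes. The libraries were then rescaled by the median of ratios of the enlarged counts. Members themselves gained few such reads (0.954% to 1.51% of the reads at their loci), and Ndufv1, with none, moved too. The direction of the medians thus depends on this setting, and its parts were not tested apart. Ratios given below with such reads include the rescaling. Between the double-labelled and Trp53-labelled libraries the median was 0.10, and 0.16 in that setting. The control-labelled library was the lowest of 4 for 50 members (55.6%) and the highest for 24 (26.7%), so members lay on both sides of it, where it was lowest for 37.3% and highest for 36.8% of all genes tested. By complex, with no test between them, medians against that library were 0.25, 0.17 and 0.20 in complex I, 0.46, 0.37 and 0.36 in complex III, 0.53, 0.39 and 0.40 in complex IV and 0.35, 0.21 and 0.37 in complex V, and -0.24, -0.39 and 0.15 in complex II. In the setting with added reads and rescaled libraries they were -0.06, -0.14 and -0.02 in complex I and 0.15, 0.06 and 0.10 in complex III. There they were 0.25, 0.14 and 0.15 in complex IV, 0.03, -0.09 and 0.12 in complex V and -0.43, -0.67 and -0.08 in complex II. The direction under that setting turned in complex I throughout, in complex V for the Trp53-labelled library and in complex II for the double-labelled library.

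**Figure D1:**
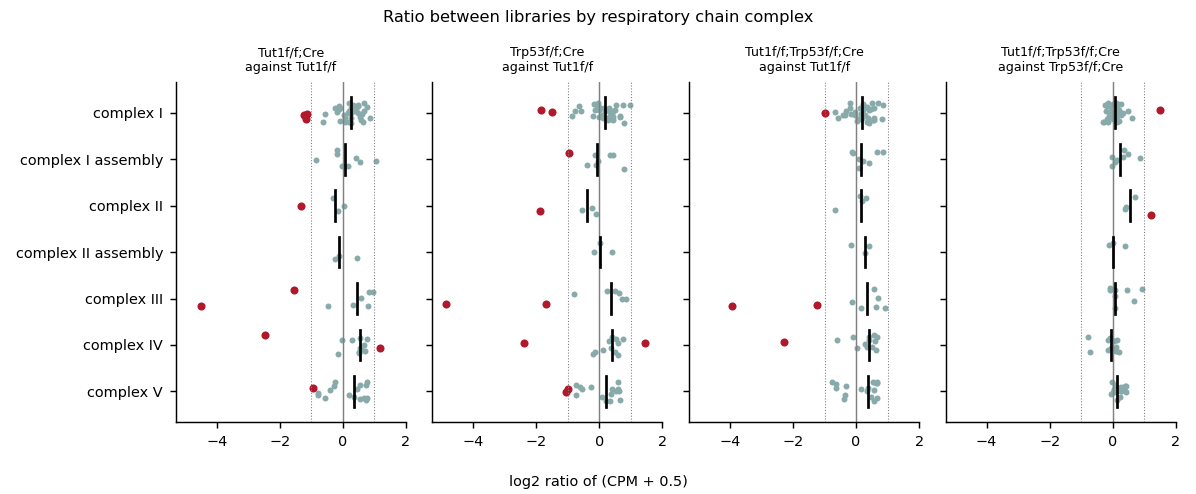
Log2 ratio of (CPM + 0.5) for each of the 90 members tested (points; x axis) by complex (y axis), 1 panel per comparison, with medians as black bars, 2-fold as dotted lines and genes past the ratio rule in red. In the 3 panels against the control-labelled library most points of complexes III, IV and V lie right of 0. Uqcrfs1 lies below -3.9 there and Cox5a below -2.2. The medians of all members (0.26, 0.19 and 0.25) turn to -0.04, -0.08 and -0.00039 with reads of rows that name no gene added and the libraries rescaled.

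Among the core subunits of complex I, Ndufv1 and Ndufs1 were lower past the ratio rule and the others described here were not in any comparison. Ndufv1 (chr19:4007384-4012806) encodes the flavoprotein that takes electrons from NADH. It had 671, 214, 202 and 250 reads, or 167, 71.1, 59.1 and 83.3 CPM. The control-labelled library was the high one, with log2 ratios of -1.23 (95% interval -1.46 to -1.01), -1.50 (-1.73 to -1.27) and -1.0 (-1.22 to -0.79). Scaled by library totals, the last was -0.86 and no longer passed.

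Ndufs1 (chr1:63143596-63176833), the largest core subunit, carries iron-sulphur clusters that pass those electrons on. It had 275, 94, 63 and 160 reads, or 68.5, 31.2, 18.4 and 53.3 CPM. The control-labelled and double-labelled libraries were both high. Against the control-labelled library the ratios were -1.13 (-1.49 to -0.79), -1.89 (-2.31 to -1.49) and -0.36 (-0.65 to -0.07), and the double-labelled library was higher than the Trp53-labelled library by 1.53 (1.10 to 1.98). That order parts the libraries as Xist and Ddx3y do, and the 2 patterns cannot be told apart from genotype here. With reads of rows that name no gene added, the ratios were -0.44, -0.91 and -0.20 and the last comparison gave 0.71, none of them past the rule.

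The other core subunits lay closer together. Ndufs3 lay between 150 and 179 CPM (it shares 50.8% of the 25-base words of its main transcript with the pseudogene Gm12251, which had 106, 47, 52 and 30 reads, so its counts are less certain), Ndufs7 between 206 and 231 CPM and Ndufv2 between 373 and 411 CPM in the 4 libraries. Ndufs8, an iron-sulphur subunit near the ubiquinone site, had 308, 367, 364 and 458 CPM, so the control-labelled library was lowest there.

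Of the accessory subunits of complex I, Ndufab1, the mitochondrial acyl carrier protein, was the member lower past the rule. It had 2019, 678, 945 and 1005 reads and ratios of -1.16 (-1.29 to -1.03), -0.86 and -0.59, of which the first passed. Counted over plain Ensembl transcripts that first ratio was -0.70, and Ndufab1 shares 30.1% of the 25-base words of its main transcript with the pseudogene Gm4459 (79, 71, 92 and 51 reads), so its counts are less certain. Ndufa10 and Ndufa8 were lower in the same direction without reaching 2-fold, with ratios of -0.64, -0.64 and -0.69, and -0.58, -0.58 and -0.40. Other accessory subunits lay on both sides of the control-labelled library. Ndufa7 had 591, 1085, 924 and 1057 CPM and ratios of 0.88, 0.64 and 0.84, Ndufv3 had 347, 557, 682 and 565 CPM and ratios of 0.68, 0.98 and 0.70, and Ndufb4 ratios of 0.77, 0.79 and 0.86. Ndufb4 shares 38.6% of its words with the pseudogene Ndufb4c (214, 273, 310 and 230 reads) and is less certain. Ndufb7 had ratios of -0.08, -0.16 and -0.31, and Ndufb6 of 0.08, -0.09 and -0.16. The 2 X-linked subunits of complex I did not follow Xist past the rule: Ndufa1 had 454, 638, 558 and 521 CPM and Ndufb11 194, 172, 191 and 191 CPM.

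The 8 assembly factors of complex I held few reads. Ndufaf1, which helps to build the membrane arm, had 73, 30, 31 and 51 reads (18.2, 9.97, 9.07 and 17 CPM). In the Trp53-labelled library it was at the edge of the rule (ratio -1.0, -1.66 to -0.38), and the ratio was -0.93 with library totals and -0.83 with reads of rows that name no gene. Ndufaf2 (142 to 191 CPM), Ndufaf3 (42.5 to 55.7), Ndufaf4 (98.1 to 156), Ndufaf5 (49.2 to 57.2), Ndufaf7 (27.5 to 38.7) and Ndufaf8 (96.3 to 105) stayed within 2-fold of each other over the libraries. Ndufaf6 had 8, 14, 13 and 12 reads, too few to tell a 2-fold difference from none.

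Complex II, the succinate dehydrogenase of the citrate cycle, has 4 subunits, all nuclear. Sdha (chr13:74322254-74350280), the flavoprotein that oxidizes succinate, had 841, 248, 194 and 393 reads, or 210, 82.4, 56.8 and 131 CPM. The order was that of Ndufs1, with the control-labelled and double-labelled libraries above the other 2. Its ratios were -1.35 (-1.56 to -1.14), -1.88 (-2.12 to -1.66) and -0.68 (-0.85 to -0.50). The double-labelled library was above the Trp53-labelled library by 1.21 (0.95 to 1.46), or by 1.0 with reads of rows that name no gene, which is just under 2-fold. Sdhb, the iron-sulphur subunit, had 543, 556, 466 and 613 CPM. The membrane anchors Sdhc and Sdhd had 88.4, 79.1, 81.1 and 109 CPM, and 231, 185, 156 and 254 CPM. All 4 subunits were highest or next to highest in the double-labelled library, and its median over them was 0.56 above the Trp53-labelled library, where the median of all genes was -0.02. The assembly factors Sdhaf2 (19.9 to 23.9 CPM), Sdhaf3 (24.6 to 36.0) and Sdhaf4 (78.5 to 107) did not pass the rule.

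Complex III held the widest difference of the set. Uqcrfs1 (chr13:30540308-30545362) encodes the Rieske iron-sulphur protein, which takes electrons from ubiquinol. It had 913, 29, 25 and 43 reads, or 227 (exact Poisson 95% interval 213 to 243), 9.64 (6.45 to 13.8), 7.32 (4.74 to 10.8) and 14.3 (10.4 to 19.3) CPM. The control-labelled library stood alone, and the 3 libraries with Cre mRNA overlapped in their intervals. The ratios were -4.56 (-5.15 to -4.03), -4.96 (-5.59 to -4.39) and -3.99 (-4.46 to -3.55), or 23.6-, 31.1- and 15.9-fold lower. Rows that name no gene held 0, 2, 1 and 1 reads at this locus, and the transcript shares no 25-base words above the 10% minimum with another annotated gene.

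Uqcrc1 (chr9:108936633-108949623), a core protein of the same complex, had 896, 229, 232 and 281 reads, or 223, 76.1, 67.9 and 93.7 CPM. Its ratios were -1.55 (-1.77 to -1.34), -1.72 (-1.93 to -1.51) and -1.25 (-1.45 to -1.06), with the control-labelled library again the high one. The other core protein, Uqcrc2, had 212, 152, 120 and 194 CPM and stayed within 2-fold (-0.48, -0.82 and -0.13). The other 5 members of complex III had ratios above 0 in all 3 comparisons. Among them, Uqcrb had 625, 1216, 1111 and 1176 CPM (0.96, 0.83 and 0.91), Uqcr10 had 889, 1584, 1371 and 1431 CPM (0.83, 0.63 and 0.69) and Uqcrh had 618, 1070, 1010 and 952 CPM (0.79, 0.71 and 0.63). Uqcrb shares 36.2% of its main transcript's words with the pseudogene Gm2962 (221, 49, 63 and 35 reads), so its counts are less certain.

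In complex IV, Cox5a (chr9:57521274-57532426), a matrix-side subunit, had 2816, 376, 455 and 429 reads, or 701, 125, 133 and 143 CPM. The control-labelled library again stood alone and the other 3 lay within a narrow range. The ratios were -2.49 (-2.65 to -2.33), -2.40 (-2.54 to -2.25) and -2.29 (-2.44 to -2.15), and the double-labelled and Trp53-labelled libraries differed by 0.10 (-0.09 to 0.30). Cox5a shares 18.8% of its words with the pseudogene Gm11633, which was not counted in any library. Cox5b, another matrix-side subunit, had 582, 840, 711 and 769 CPM and Cox4i1 had 1343, 1316, 1157 and 1258 CPM, so neither followed Cox5a. Most small subunits were lowest in the control-labelled library, with ratios of 0.77, 0.76 and 0.60 for Cox6c, 0.71, 0.51 and 0.63 for Cox7a2, and 0.68, 0.60 and 0.55 for Cox7c. Cox7c shares 46.7% of its words with the pseudogene Gm10012 (202, 177, 161 and 139 reads), and Cox5b 34.6% with Gm11273 (283, 353, 391 and 217 reads), so both are less certain. X-linked Cox7b had 42.6, 62.1, 64.7 and 60.3 CPM, and its ratios of 0.55, 0.60 and 0.50 did not set the libraries with Xist reads apart.

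**Figure D2:**
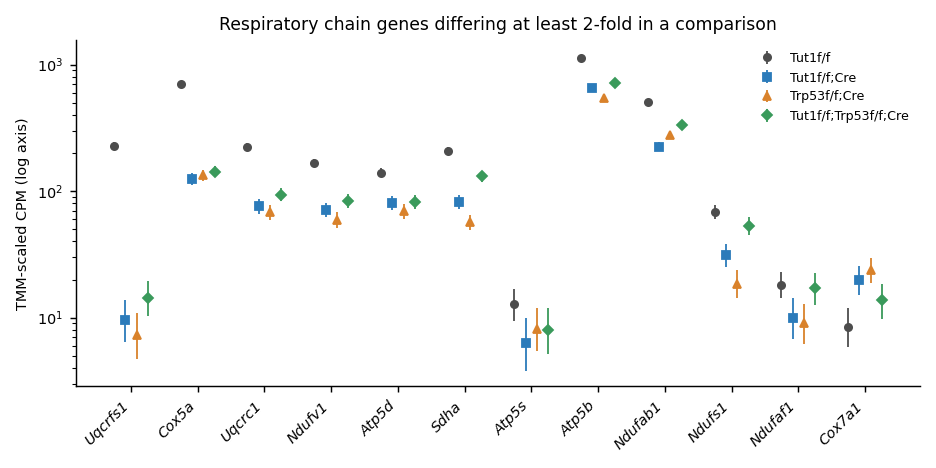
TMM-scaled CPM (log y axis) in the 4 libraries for the 12 members past the ratio rule in any comparison, with exact Poisson 95% intervals as bars and 1 library per symbol. Uqcrfs1 lies at 227 CPM in the control-labelled library and between 7.32 and 14.3 in the others, Cox5a at 701 and between 125 and 143, while Cox7a1 is the gene of the 12 that is lowest in the control-labelled library.

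Complex IV also holds pairs of subunit genes used in different tissues, and these were compared per length (CPM per kb of the main transcript). Cox4i1 stood at 1802, 1767, 1553 and 1689 CPM per kb and its lung and hypoxia form Cox4i2 at 3.43, 2.74, 8.86 and 3.21. Cox6a1 stood at 1525, 2258, 2153 and 1937, and the muscle form Cox6a2 at 0.733, 0, 6.46 and 2.45 (2, 0, 15 and 5 reads, under the filter). Cox6b1 stood at 563, 797, 738 and 752 against 116, 144, 125 and 75.3 for the testis form Cox6b2. Cox7a2 stood at 1732, 2826, 2471 and 2674, the supercomplex factor Cox7a2l at 392, 354, 353 and 401, and the heart and muscle form Cox7a1 at 21.6, 50.7, 60.3 and 34.8. Cox7a1 was the member higher past the rule against the control-labelled library, with 34, 60, 81 and 41 reads and ratios of 1.24 (0.60 to 1.89), 1.48 (0.89 to 2.11) and 0.69 (-0.001 to 1.39), and with reads of rows that name no gene the first was 0.92 and did not pass. Cox8a, the form of most tissues, stood at 3328, 4725, 4256 and 4071 CPM per kb, the highest of the members in the control-labelled library by this measure. The ubiquitous forms thus led each pair in all 4 libraries. Ndufa4, at 2749, 4366, 3652 and 4092 CPM per kb, led its hypoxia-induced relative Ndufa4l2, which had 4, 0, 0 and 1 reads and did not pass the filter (a count of 0 allows up to 3 reads).

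In complex V the catalytic subunit Atp5b had 1134, 652, 547 and 723 CPM, with ratios of -0.80, -1.05 (-1.13 to -0.97) and -0.65. Atp5d, of the rotating central stalk, had 140, 80.8, 69.1 and 82.3 CPM, with ratios of -0.79, -1.02 (-1.24 to -0.79) and -0.76. For both the Trp53-labelled library passed the rule narrowly, and scaled by library totals they were -0.98 and -0.94. Atp5a1, which alternates with Atp5b around the head, had 678, 507, 406 and 527 CPM (-0.42, -0.74 and -0.36), and Atp5c1, the shaft, 500, 423, 418 and 559 CPM (-0.24, -0.26 and 0.16). Atp5s, the coupling factor B gene, had 51, 19, 28 and 24 reads, and its ratio of -1.01 (-1.85 to -0.22) in the Tut1-labelled library moved to -0.91 with library totals. Ratios were 0.78, 0.53 and 0.67 for Atp5k and 0.76, 0.59 and 0.67 for Atp5j2, both membrane subunits, and 0.72, 0.64 and 0.67 for Atp5e, of the central stalk, while the membrane ring subunit gene Atp5g3 had -0.29, -0.54 and -0.39. The 3 genes that encode an identical ring subunit differed from each other. Per kb, Atp5g3 stood at 1911, 1562, 1310 and 1454, Atp5g2 at 706, 807, 747 and 897 and Atp5g1 at 138, 204, 173 and 204, the last over the annotated length of a transcript that the reads may not span. Without division by length the order of those 2 turned, with Atp5g1 at 651, 960, 817 and 963 CPM and Atp5g2 at 516, 590, 546 and 656 CPM, so no order between them is read here. Atp5g2 shares 87.8% of its words with the pseudogene Gm10175 (2216, 2085, 2267 and 2089 reads) and is uncertain. The inhibitor of the ATP synthase, Atpif1, which is no member under this symbol, had 3431, 4507, 5004 and 3759 reads.

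The members are short, and length moved with the ratios. The main transcripts of 89 members had a median annotated length of 861 nt, with 52 (58.4%) under 1000 nt, against 2380 nt and 14.6% for 9161 genes tested. Against the control-labelled library, the 23 members under 600 nt had median ratios of 0.68, 0.59 and 0.55, where all genes of that length had 0.49, 0.51 and 0.35. The 29 members from 600 to below 1000 nt had 0.26, 0.21 and 0.35, where all genes had 0.17, 0.21 and 0.20. For the 27 members from 1000 to below 2000 nt they were -0.17, -0.22 and 0.05, where all genes had -0.30, -0.29 and -0.18. The 10 members of 2000 nt or more had -0.21, -0.14 and 0.03 and all genes 0.02, 0.01 and -0.06. Members of each class under 2000 nt thus lay near or above all genes of their length, and the part of length in the difference between short and long members was not tested. Uqcrfs1 (1363 nt) and Cox5a (645 nt) lay below the medians of their classes in all 3 comparisons.

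**Figure D3:**
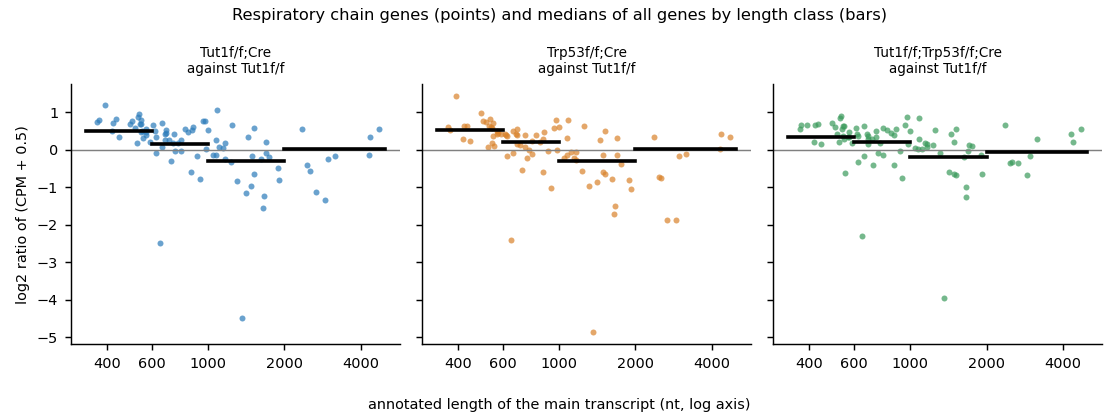
Log2 ratio of (CPM + 0.5) against the control-labelled library (y axis) by annotated length of the main transcript (log x axis, nt) for 89 members (points), with the median of all genes tested in each of 4 length classes as black bars. Points fall from about the level of the all-gene median of 0.49, 0.51 and 0.35 under 600 nt to below 0 between 1000 and 2000 nt in the first 2 panels, and Uqcrfs1 and Cox5a lie apart at the bottom.

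A model over all 4 libraries leaves 1 residual degree of freedom. In edgeR's quasi-likelihood test of Tut1 status, adjusted for Trp53 status, 0 of 90 members and 0% of 9882 genes passed a false discovery rate (FDR) of 0.05 with a 2-fold change. For Trp53 status 0 members and 0.0101% of genes (1) passed. At an unadjusted p under 0.05 there were 2 members for each status, Uqcrfs1 and Cox5a, and 171 and 147 genes in all. DESeq2 called 0 members for either status, with 1 and 0 at an unadjusted p under 0.05. For Uqcrfs1 the edgeR log2 difference was -1.91 (SE 0.72, adjusted p = 1) for Tut1 status and -2.27 (SE 0.72, adjusted p = 0.914) for Trp53 status, and for Cox5a -1.20 (SE 0.49) and -1.11 (SE 0.49), with adjusted p = 1 in each. An additive model gives each status a share of a difference that sets 1 library against the other 3, so these values do not name which status it goes with. Splitting the libraries the remaining way, the control-labelled and double-labelled libraries against the others, edgeR called 0 members, with 10 at an unadjusted p under 0.05 where all genes had 11.5%.

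Isoform usage, the percentage of a gene's reads held by each isoform, differed past the rule below for few member isoforms. Of member reads, 85.1%, 87.2%, 87.3% and 86.6% were on plain Ensembl transcripts, where all genes had 78.1%, 75.0%, 74.5% and 74.2%. The leading isoform held a median of 89.9% of the reads of the 89 members with at least 80 reads, against 85.1% over 8156 genes. Among reads on plain transcripts, those annotated as retained intron made up 0.389%, 0.519%, 0.424% and 0.470% in members and 1.19%, 2.06%, 1.95% and 2.04% in all genes. By Fisher's exact test on reads (FDR under 0.05 and at least 10 percentage points), which compares libraries and not conditions, 4 of 364 member isoforms (1.10%) differed between the Tut1-labelled and control-labelled libraries, where 8.66% of all 18376 did. For the Trp53-labelled library it was 6 of 369 (1.63%) against 9.12%, and for the double-labelled library 1 of 375 (0.267%) against 6.49%. Between the double-labelled and Trp53-labelled libraries, 5 of 362 (1.38%) differed against 1.24%, so members were near all isoforms there. Over the 4 libraries, edgeR's diffSpliceDGE called 0 of 429 member isoforms and 0% of 21738 isoforms for Tut1 status, with 0 and 53 at an unadjusted p under 0.05 and 10 points. The usage differences fell in 6 genes, and the sequences of 4 of them follow since they are the places where these transcripts part. In Ndufs1 and Ndufaf7 capitals mark the start of an intron that is read through, in Ndufa10 and Ndufs4 they mark exon bases left out. Sequences are on the coding strand of GRCm38, 5′ to 3′.
Ndufs1 exon 10 and the intron after it, chr1:63159670-63159789, minus strand: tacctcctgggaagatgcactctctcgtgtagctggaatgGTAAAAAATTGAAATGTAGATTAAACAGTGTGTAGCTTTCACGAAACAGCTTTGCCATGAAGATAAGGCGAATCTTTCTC
Ndufaf7 exon 2 and the intron after it, chr17:78937615-78937734, plus strand: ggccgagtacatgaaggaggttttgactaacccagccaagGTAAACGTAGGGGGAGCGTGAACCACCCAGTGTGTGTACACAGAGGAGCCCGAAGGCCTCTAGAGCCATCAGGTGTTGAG
Ndufa10 exon 2, chr1:92470817-92470985, minus strand: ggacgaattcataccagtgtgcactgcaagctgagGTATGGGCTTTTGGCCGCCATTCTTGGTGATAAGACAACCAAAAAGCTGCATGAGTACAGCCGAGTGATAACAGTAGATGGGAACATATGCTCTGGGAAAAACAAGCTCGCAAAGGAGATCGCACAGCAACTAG
Ndufs4 exon 2, chr13:114351448-114351526, minus strand: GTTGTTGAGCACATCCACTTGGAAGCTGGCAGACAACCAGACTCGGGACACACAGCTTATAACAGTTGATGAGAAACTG

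Ndufs1-202 is annotated as a retained intron: its exon 10 runs on for 848 bases of intron and it ends there, where the coding transcript has 19 exons. It held 9, 17, 11 and 6 reads, or 3.27% (Wilson 95% 1.73% to 6.10%), 18.1% (11.6% to 27.1%), 17.5% (10% to 28.6%) and 3.75% (1.73% to 7.94%) of the gene. The Tut1-labelled and Trp53-labelled libraries were high and did not overlap with the other 2. Fisher's exact test gave adjusted p = 0.00024 and 0.00257 against the control-labelled library, and 0.05 (just under the threshold) between the double-labelled and Trp53-labelled libraries. Over all reads at the locus, those of rows that name no gene included, the shares were 2.37% (1.25% to 4.44%), 6.49% (4.09% to 10.1%), 5.16% (2.91% to 9.01%) and 2.03% (0.932% to 4.35%), which differ by under 10 points and whose intervals overlap. This denominator was chosen after seeing the data, and whether those rows hold the same intron was not tested. The change in percentage of gene-named reads came with fewer reads elsewhere in the gene, since Ndufs1-201, the full coding transcript, had 119, 38, 24 and 75 reads. Among isoforms named by a read, 1 went from 0% to 11.7% and another from 14.9% to 4.26% in the Tut1-labelled library. Over all reads at the locus they went from 0% to 4.20% and from 10.8% to 1.53%, each by under 10 points.

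Sdha-201, the coding transcript, held 87.3% (84.9% to 89.4%), 66.9% (60.9% to 72.5%), 67.0% (60.1% to 73.2%) and 81.2% (77.0% to 84.7%) of Sdha reads. Again the Tut1-labelled and Trp53-labelled libraries stood together, here as the low ones. Fisher's exact test gave adjusted p = 2.49e-10 and 1.06e-08 against the control-labelled library, and 0.0141 between the double-labelled and Trp53-labelled libraries. Over all reads at the locus it held 85.3%, 54.8%, 50.4% and 72.8%. The rest of the gene-named reads went to isoforms named by a read, such as 1 with 2.50%, 10.5%, 13.4% and 4.84%. In Ndufaf7, an assembly factor of complex I, the retained intron transcript Ndufaf7-204 (307 intron bases after exon 2) held 8, 15, 17 and 13 reads, or 5.52%, 15.8%, 18.1% and 11.2%, and the Trp53-labelled library passed Fisher's exact test (adjusted p = 0.0309). Over all reads at the locus these were 4.55%, 11.3%, 13.6% and 8.97%, under 10 points apart.

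Ndufa10 differed in a splice site rather than an intron. Reads assigned to a variant of Ndufa10-207, which lacks the last 134 bases of exon 2 and is annotated for nonsense-mediated decay, held 61.2%, 67.1%, 73.0% and 62.1% of the gene, more than the variant of the coding Ndufa10-201 (32.4%, 25.3%, 21.3% and 30.5%) in every library. The Trp53-labelled library was above the control-labelled library by 11.8 points (Fisher's exact test, adjusted p = 1.6e-06), and the double-labelled library was 10.9 points below it (adjusted p = 0.00194). In Ndufs4, the coding transcript Ndufs4-201 held 77.1%, 68.0%, 75.2% and 66.5%, with adjusted p = 6.58e-06 by Fisher's exact test for the double-labelled library. Over all reads at the locus it held 74.5%, 58.5%, 67.0% and 58.7%, so with that denominator the Tut1-labelled library also lay over 10 points below the control-labelled one. Ndufs4-202, which leaves out the 79 bases of exon 2 and is annotated for nonsense-mediated decay, held 6.46%, 13.3%, 7.16% and 15.2%. The Tut1-labelled and double-labelled libraries were high for it, by under 10 points, so it was not called. The 134 and 79 exon bases left out of Ndufa10-207 and Ndufs4-202 are not multiples of 3. In Sdhaf3 a read-named isoform held 11, 1, 3 and 20 reads, or 10.2%, 1.35%, 3.19% and 18.5% (adjusted p = 0.0313 by Fisher's exact test between the double-labelled and Trp53-labelled libraries).

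**Figure D4:**
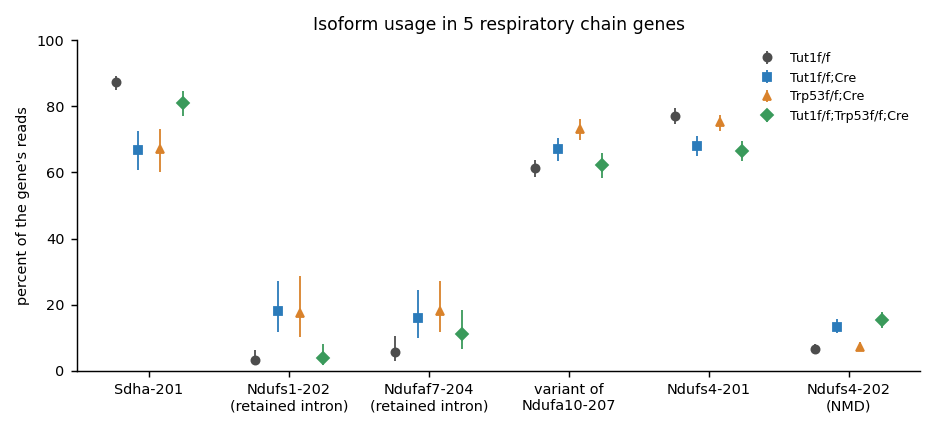
Percentage of the gene's reads (y axis) held by each of 6 isoforms of 5 members in the 4 libraries, out of reads that name the gene, with Wilson 95% intervals as bars. The Tut1-labelled and Trp53-labelled libraries lie together for Sdha-201 (66.9% and 67.0%) and Ndufs1-202 (18.1% and 17.5%), and the Tut1-labelled and double-labelled libraries lie together for Ndufs4-202 (13.3% and 15.2%).

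Reads of rows that name no gene were placed by their position, which the table gives to 1 kb. A row counted where it lay from 1 kb below the lower coordinate of a gene to the upper one. Strand was not used, so such reads can belong to a neighbouring gene or the other strand. A row can also count for several overlapping genes. Over all members they were 1742, 2658, 2475 and 2369 reads, or 0.954%, 1.51%, 1.34% and 1.41% of the reads at these loci. Ndufs1 stood well above that, with 105, 168, 150 and 136 such reads, or 27.6% (23.4% to 32.3%), 64.1% (58.2% to 69.7%), 70.4% (64.0% to 76.2%) and 45.9% (40.4% to 51.6%). Sdhc had 7.31%, 27.9%, 26.1% and 24.3%, Sdha 2.21%, 18.2%, 24.8% and 10.3%, Ndufs4 3.38%, 14.0%, 10.8% and 11.8%, and Uqcrc1 0.112%, 11.2%, 7.94% and 5.71%. In each of these 5 the control-labelled library was lowest. Other loci with such reads included Ndufs3 (12.3%, 17.6%, 22.3% and 18.2%), and, with few reads in all, Ndufaf6 (65.2%, 61.1%, 67.5% and 68.4%) and Atp5s (23.9%, 47.2%, 37.8% and 46.7%). With such reads added to all genes and the libraries rescaled, members lower numbered 9, 12 and 5 against the control-labelled library. In that setting 12.1%, 12.8% and 9.83% of all genes were lower. The 12 (13.3% of members) were thus near the share of all genes and the 9 and 5 of 90 below it. The part of the rescaling in these counts was not tested. Members higher numbered 0, 1 and 0, where 13.2%, 12.2% and 10.1% of all genes were higher. Of the members named above, Uqcrfs1 (-4.78, -5.21 and -4.21), Cox5a (-2.76, -2.69 and -2.54), Uqcrc1 (-1.70, -1.91 and -1.43) and Ndufv1 (-1.55, -1.81 and -1.26) remained among them.

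**Figure D5:**
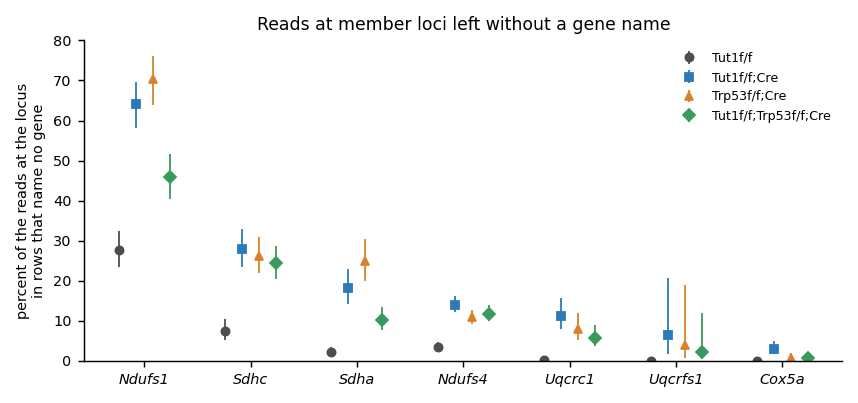
Percentage of the reads at a locus that lie in rows naming no gene (y axis) for 7 members in the 4 libraries, with Wilson 95% intervals as bars. Ndufs1 reaches 70.4% in the Trp53-labelled library against 27.6% in the control-labelled library, while Uqcrfs1 and Cox5a reach at most 6.45% and 2.84%.

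Promoters of 77 members (82 starts) were found in a RefSeq table of GRCm38.p6, as windows of 250 bases before to 50 after a start, and searched on both strands for 3 motifs of factors known to drive respiratory chain genes. GCGCATGC, of the type bound by NRF1, lay in 12 of the 82 member starts (14.6%), of 12 genes, and in 2.71% of all 32851 starts. AAGATGGC, of the type bound by YY1, lay in 11 member starts (13.4%) and in 2.75% of all. CCGGAAGT, of the ETS type bound by GABP, lay in 5 member starts (6.1%) and in 3.89% of all. The NRF1-type letters can overlap a copy of their own on the other strand. Of the 10 members that were lower in a comparison and had a promoter here, Uqcrc1 held the NRF1-type match and no other match was found, and Cox7a1 held none. The 200 bases before the start are shown for the 2 members with the largest differences, whose windows held none of the 3 motifs, and for 2 members within 2-fold, where capitals mark the NRF1-type match, lengthened where copies overlap.
Uqcrfs1, chr13:30545317-30545516, minus strand: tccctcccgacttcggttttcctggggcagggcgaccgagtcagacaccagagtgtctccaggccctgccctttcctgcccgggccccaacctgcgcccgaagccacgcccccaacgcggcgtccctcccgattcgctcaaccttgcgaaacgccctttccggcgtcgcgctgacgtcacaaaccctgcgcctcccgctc
Cox5a, chr9:57521032-57521231, plus strand: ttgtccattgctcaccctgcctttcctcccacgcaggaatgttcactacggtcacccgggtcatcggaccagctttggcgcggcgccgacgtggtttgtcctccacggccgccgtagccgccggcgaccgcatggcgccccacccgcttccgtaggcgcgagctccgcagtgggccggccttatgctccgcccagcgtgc
Cox6a1, chr5:115348959-115349158, minus strand: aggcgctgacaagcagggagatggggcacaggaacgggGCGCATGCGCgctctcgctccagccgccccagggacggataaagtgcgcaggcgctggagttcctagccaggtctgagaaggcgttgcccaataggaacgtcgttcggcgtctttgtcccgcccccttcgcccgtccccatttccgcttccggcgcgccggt
Ndufa8, chr2:36049339-36049538, minus strand: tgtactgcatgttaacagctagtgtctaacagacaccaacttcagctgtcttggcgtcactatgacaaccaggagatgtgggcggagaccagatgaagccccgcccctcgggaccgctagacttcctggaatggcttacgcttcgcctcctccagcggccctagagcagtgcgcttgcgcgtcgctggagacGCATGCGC

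Genes around the chain were counted from lists chosen with earlier results of these data known. The citrate cycle feeds the chain with NADH and succinate. Of its 13 genes, 6, 8 and 3 were lower and 0 higher against the control-labelled library, with medians of -0.84, -1.27 and -0.41. Beside this list and those below, 12.8%, 14.3% and 9.94% of all genes tested were lower and 13.1%, 13.2% and 10.1% higher. Citrate synthase (Cs) had 1350, 402, 352 and 731 reads, and Ogdh, of the oxoglutarate dehydrogenase complex, 120, 25, 9 and 20. Cs, Dlst and Ogdh were higher past the rule in the double-labelled library than in the Trp53-labelled library, as Sdha was. Of 17 glycolysis genes 4, 3 and 1 were lower and Hk2, a hexokinase, was higher each time (485, 811, 1081 and 828 reads), with Pfkl, a phosphofructokinase, lower each time (583, 86, 133 and 80 reads). Of the mitochondrially encoded subunits 10 of 13 passed the filter, with 2, 2 and 1 higher and 0 lower. mt-Atp6 passed each time (31, 47, 57 and 49 reads) and mt-Nd5 the first 2 times (392, 831, 823 and 763 CPM). Cytochrome c (Cycs, with 1992, 2398, 2332 and 2377 reads) and cytochrome c1 (Cyc1, with 923, 544, 586 and 391) did not pass.

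Among 28 assembly factors outside the symbol rule, 5, 5 and 3 were lower and 0 higher. Tmem70, which helps to assemble the ATP synthase, had 271, 43, 61 and 45 reads, Cox18, which inserts a core subunit of complex IV, 62, 9, 13 and 8, and Cox15, which makes its haem a, 95, 26, 14 and 38. Cox15 was higher in the double-labelled library than in the Trp53-labelled library by 1.63. Of 12 regulators of mitochondrial gene expression 3, 2 and 3 were lower and 0 higher. Gabpa and Gabpb1, the subunits of GABP, had 56, 15, 20 and 20 reads and 63, 19, 15 and 18 reads, and Nrf1 had 81, 39, 38 and 28, which passed for the last library. Mitochondrial ribosomal proteins had 9, 8 and 6 of 77 genes lower and 2 higher each time, and cytosolic ribosomal proteins 2 of 86 lower each time and 0 higher. These lists were not tested against other genes, and their counts stand beside the shares of all genes given for each comparison.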

How the data were processed

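The authors deposited 1 table of isoform counts from nanopore cDNA sequencing, with whole-number read counts in 4 columns, 1 per library, and 3 days after treatment. The aligner, the isoform caller and its filters for this table are not given in the sources used here. Per the labels the build is mm10. Rows end in a gene identifier where one was assigned. The 208527 rows that name no gene, 17.2% to 30.2% of the reads of a library, stayed out of library sizes and tests. Isoforms are plain Ensembl transcripts, numbered variants of them, or isoforms named by a read.

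Counts were summed per gene. The members and the gene lists were chosen with earlier results of these data known. Named members were those past the ratio rule at 10 CPM or more in a library, core and catalytic subunits, paralogue sets, assembly factors, X-linked members, isoforms called or annotated as retained intron or nonsense-mediated decay among the called genes, and the targets. Ndufa7, Ndufa8, Ndufv3, Ndufb4, Ndufb6, Ndufb7, Uqcrb, Uqcr10, Uqcrh, Cox6c, Cox7c, Atp5k, Atp5j2, Atp5e and the genes named from other lists were chosen after their values were seen, as were Cox7a1 and Cox6a1 for the promoter text.

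Genes passed filterByExpr and were scaled by TMM (edgeR 4.0.16, R 4.3.3). Ratios of 2 libraries carry exact conditional binomial 95% intervals. Tut1 and Trp53 status were fitted additively by edgeR's quasi-likelihood test with 1 residual degree of freedom, with DESeq2 1.42.0 as the alternative, and p-values were adjusted by Benjamini-Hochberg over all genes or isoforms. Usage was tested by two-sided Fisher's exact test (genes of at least 20 reads in both libraries, isoforms of at least 10 over the pair) and by diffSpliceDGE. Scripts used Python 3.11.15, scipy 1.17.1 and pandas 2.3.3 and were tested on simulated data. Alternatives covered the scaling, filter, fold, pseudocount, usage threshold, isoform kind and placement of reads without a gene. That placement came with a rescaling of the libraries by the median of ratios of the enlarged counts. Some single-gene values are not reported here.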

Additional observations from a re-analysis of the deposited data

Results flagged for a closer look

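Ndufs1 and Sdha differed in opposite directions in the comparisons made for Tut1. Ndufs1 had a log2 ratio of -1.13 between the Tut1-labelled and control-labelled libraries and of 1.53 between the double-labelled and Trp53-labelled libraries. Sdha had -1.35 and 1.21. With reads of rows that name no gene placed by position and the libraries rescaled, neither ratio of Ndufs1 passed the rule (-0.44 and 0.71). Those of Sdha were -1.41 and 1.0, of which the second no longer passed. The control-labelled and double-labelled libraries were the high ones for both genes, and the same 2 libraries lacked Xist reads and held reads of Ddx3y. With 1 library per group the difference between these effects was not tested.

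Rows that name no gene held a smaller share of reads in the control-labelled library than in the others over whole libraries (17.2% against 27.3% to 30.2%) and over all member loci together (0.954% against 1.34% to 1.51%). The 5 loci given here are those where the intervals of all 3 other libraries lay above that of the control-labelled library and the widest gap was at least 10 points. Their highest share was 70.4% at Ndufs1 and 24.8% at Sdha in the Trp53-labelled library. In the Tut1-labelled library it was 27.9% at Sdhc, 14.0% at Ndufs4 and 11.2% at Uqcrc1.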

How the results depend on the processing

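No paired analysis was possible because each group had 1 library, and no replicate could be left out. Of the summary results under the alternatives, 61 stayed within set limits, 21 moved beyond them and 3 reversed. The 61 include all alternatives of the model fits and of diffSpliceDGE. Those called 0 members in every setting, so their agreement says little. The limits were 1.5-fold for a count, 0.1 for a median log2 ratio and the Wilson interval for a share of reads, so they differ in strictness. Within them the median of the double-labelled against the Trp53-labelled library still went from 0.102 to 0.176 with library totals and 0.16 with reads placed by position, and members differing for the double-labelled library from 4 to 6 over plain transcripts. Also, of the single members' ratios, 83 kept their call and 17 lost it (values of Ndufab1, Ndufs1, Ndufv1, Ndufaf1, Sdha, Cox7a1, Atp5b, Atp5d and Atp5s). Comparisons are taken in the order of the Tut1-, Trp53- and double-labelled libraries against the control-labelled one, then double-labelled against Trp53-labelled. With a fold of at least 1.5, members past the rule numbered 32, 31, 23 and 9, of which 20, 16, 13 and 7 were higher. As shares of members these were 22.2%, 17.8%, 14.4% and 7.78% higher and 13.3%, 16.7%, 11.1% and 2.22% lower, against 20.97%, 22%, 16.3% and 9.59% higher and 21.3%, 22.3%, 18.5% and 8.89% lower of all genes. With 20 percentage points, isoforms differing in usage numbered 1, 1, 0 and 0, where 4.76%, 5.07%, 3.22% and 0.489% of all isoforms did, and over plain Ensembl transcripts 3 and 2 in the last 2 comparisons, where 9.96% and 2.58% of all did. The median ratio of members for the Trp53-labelled library was 0.294 over plain transcripts. Scaling by library totals moved the median of all genes to 0.11 and 0.12 for the Tut1- and double-labelled libraries, and the member median of the latter to 0.394. Placing reads of rows without a gene by position, with the libraries rescaled to the enlarged counts, was an alternative chosen after seeing the data. It turned the member medians to -0.0421, -0.0795 and -0.000388 and left 0 members past the rule in the last comparison. Member shares of gene reads were 5.40%, 6.90%, 6.21% and 6.46% without CT010467.1 and mitochondrially encoded genes, and 4.64%, 6.78%, 6.23% and 6.77% over plain transcripts. The cause was not tested. Members with few reads, such as Ndufaf6 and Atp5s, have wide intervals at this depth.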
